A study of Nicotiana tabacum with 6 samples.

Results

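The genes described here are named for regulators of the plant cell cycle. They cover cyclins, the cyclin-dependent kinases that cyclins activate, and the inhibitors and docking subunits of these kinases. Retinoblastoma-related proteins, E2F transcription factors, and the anaphase-promoting complex with its FIZZY-RELATED activators are included. Some of the kinases and cyclins are known for roles in transcription or splicing, and 4 loci carry another annotation, as given below. The members were taken by the wording of the protein match of each locus. It had to hold a word beginning with cyclin, or name cell division control protein 2, an E2F transcription factor, a retinoblastoma-related protein, the anaphase-promoting complex or FIZZY-RELATED. This found 174 of the 39825 loci in the table. Expression is given in FPKM (fragments scaled by transcript length and by sequencing depth), and the 145 members that averaged at least 0.5 FPKM over the 6 libraries were tested. Among the loci matched by this wording, only this minimum used expression values. The wording itself was chosen with earlier results of these data known.

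In plants, D cyclins bind the kinase CDKA, and the pair phosphorylates the retinoblastoma-related protein, which releases E2F factors and lets DNA replication begin. A and B cyclins then act with CDKA and the plant-specific CDKB through replication and mitosis, and the anaphase-promoting complex marks mitotic cyclins for destruction. KRP and SIAMESE-RELATED (SMR) proteins inhibit the kinases. In Arabidopsis, D3 cyclins are known as targets of cytokinin in dividing tissue, and FIZZY-RELATED and SIAMESE-type genes for the switch to DNA replication without division.

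RNA was sequenced from tobacco explants kept for 2 weeks on medium with 0.5 mg/L of the synthetic auxin NAA, naphthaleneacetic acid (3 libraries), or 0.1 mg/L NAA (3 libraries). The labels give the plant as Nicotiana tabacum, the paper as Nicotiana benthamiana, and the loci are those of the N. benthamiana genome Niben261, whose identifiers carry the chromosome number. The study's explants were cotyledons on a medium that also held the cytokinin 6-benzyladenine. Neither the labels nor the methods say whether the repeats came from separate cultures, so p-values measure only the spread between these libraries, which may be technical.

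Deposited FPKM values summed to 986722 to 1015420 in the 0.5 mg/L libraries and to 1140994 to 1155639 in the 0.1 mg/L libraries. The low values placed the depth of replicate 3 at 0.1 mg/L at 0.74 times that of replicate 1, and 3983 loci had a value of 0 there, whereas the remaining libraries had 3311 to 3528 such loci. Markers of other tissues differed with the auxin dose. Of 46 tested loci for chlorophyll a-b binding proteins and the Rubisco small subunit, which mark green leaf cells, 39 fell and 0 rose, with summed FPKM of 2860 to 3850 at 0.5 mg/L and 7632 to 8442 at 0.1 mg/L. Of 6 secondary wall cellulose synthase loci (xylem), 5 fell, with sums of 30.6 to 52.0 at 0.5 mg/L and 90.5 to 94.0 at 0.1 mg/L. Of 9 tested epidermal loci, 7 rose, with sums of 54.2 to 116 and 33.9 to 35.5 FPKM at 0.5 and 0.1 mg/L. Of 11 tested shoot meristem loci, 4 rose and 3 fell, with sums of 154 to 183 at 0.5 mg/L and 117 to 124 at 0.1 mg/L. In none of these lists was a marker at 0 in all 6 libraries, and their part in the results on the cell cycle genes was not tested. In bulk tissue, fewer cells of a type and less RNA per cell cannot be told apart.

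The genes named for cell cycle regulators differed between the auxin doses in both directions, with similar numbers higher and lower in the deposited values. Differences were tested with limma on log2(FPKM + 1), with p-values adjusted over all 32443 loci that passed the minimum, and rose or fell is used here only for an adjusted p under 0.05. Of the 145 loci, 48 passed (33.1%), 25 higher and 23 lower, against 41.9% of all tested loci (21.7% higher and 20.2% lower). The median log2 fold change was 0.06 over the 145 loci and 0.02 over all loci. With a log2 fold change of at least 1 in size as well, which is called differentially expressed below, 4 loci passed (2.76%, against 5.86% of all loci), 1 higher and 3 lower. The values of the treatments did not overlap at 73 of the 145 loci (50.3%), against 54.7% of all loci.

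The count depended on the 0.1 mg/L libraries and on the scaling, and the balance most on the scaling. Without replicate 1 at 0.1 mg/L, 29 of the members passed (14 higher and 15 lower). Without replicate 2 of that treatment 32 passed (16 higher and 16 lower), and without its shallower replicate 3, 36 (22 higher and 14 lower). When the libraries were rescaled to 1 total, as TPM (transcript shares of a common total), the median of all loci shifted to a log2 fold change of 0.19, and 61 members passed, 49 higher and 12 lower (80.3% of the calls higher, against 52.1% as deposited). Over all loci the same rescaling gave 73.8% of the calls higher, against 51.7%. Of the 48 loci, 23 passed under every alternative tried, 13 of the higher and 10 of the lower ones.

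**Figure D1:**
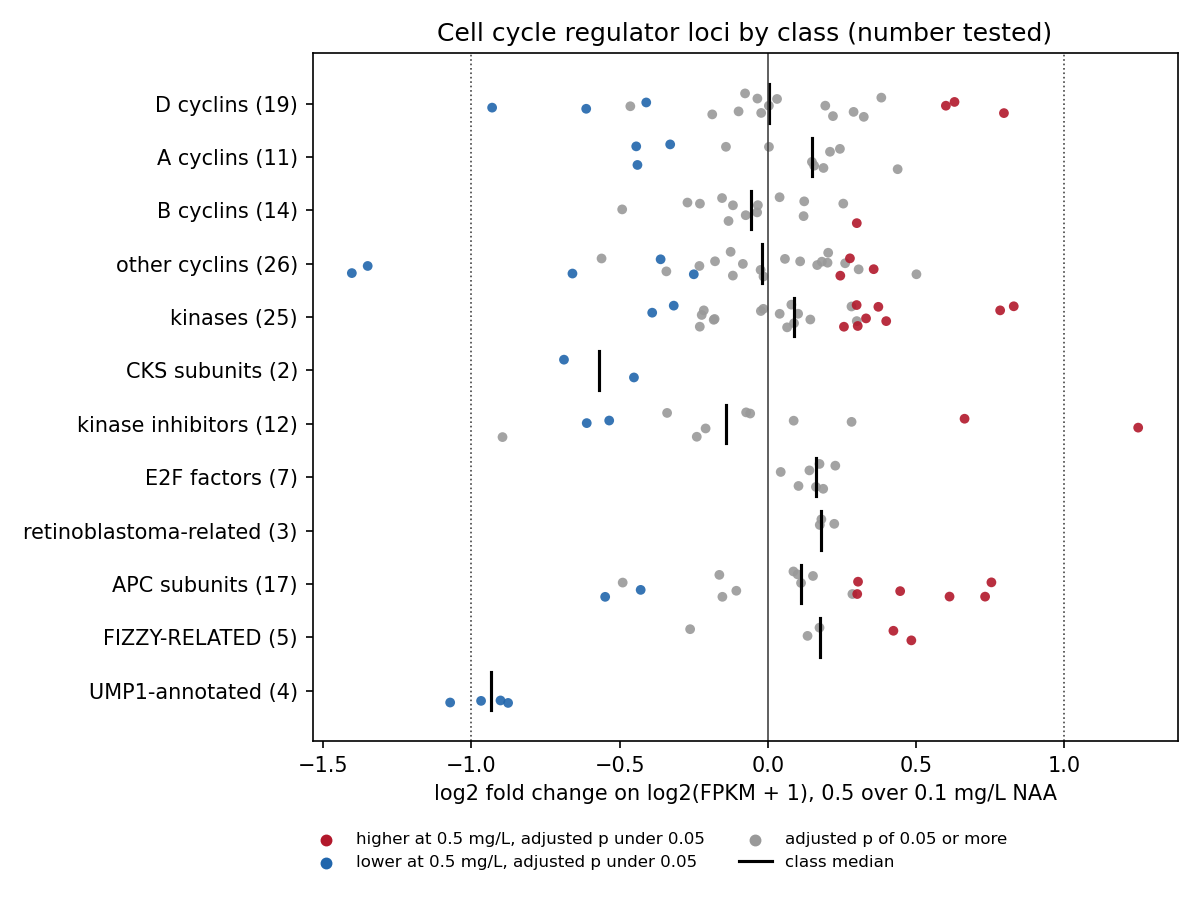
Log2 fold change of each tested cell cycle locus, 0.5 over 0.1 mg/L NAA on the log2(FPKM + 1) scale (horizontal axis), by class (rows, number of loci tested in brackets). Each point is 1 locus, coloured by the limma call, the black bar is the class median, and dotted lines mark a log2 fold change of 1 in either direction; the points beyond them are 3 loci to the left and 1, the SMR2-like inhibitor at 1.25, to the right.

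D cyclins carry hormone and sugar signals into the cell cycle at its start. Of 19 tested D cyclin loci, 3 rose (1 each of D1, D2 and D6) and 3 fell (all D3), with a median log2 fold change of 0.00, and 13 did not pass. The share that passed was 31.6%, against 41.9% of all tested loci. Under TPM scaling 5 were called higher (1 of them a D3 locus, Niben261Chr01g1314001, adjusted p = 0.045) and 2 lower, and under quantile normalization 1 higher and 3 lower. D3 cyclins were the most abundant of the class. Their summed FPKM was 256, 239 and 227 in the 0.5 mg/L libraries and 288, 291 and 310 in the 0.1 mg/L libraries, with no overlap. The separation depended on the scaling: in TPM the sums ran from 230 to 253 in 0.5 mg/L libraries and from 250 to 272 in 0.1 mg/L libraries, and overlapped.

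The largest D3 difference was at the cyclin-D3-1-like locus Niben261Chr09g1278001, which had 43.2, 41.3 and 34.0 FPKM at 0.5 mg/L and 76.4, 75.4 and 75.6 FPKM at 0.1 mg/L. It fell to 0.521 times the level at 0.1 mg/L (log2 fold change -0.93 ± 0.10 SE, limma adjusted p = 0.00056), and the treatments were far apart beside their spread. A second D3-1-like copy, Niben261Chr03g0237011, had 19.3, 20.2 and 18.4 FPKM at 0.5 mg/L and 28.4, 29.6 and 32.3 FPKM at 0.1 mg/L, and fell as well (-0.61 ± 0.08, limma adjusted p = 0.0012). The remaining copy did not follow them. Niben261Chr13g0053003 had 37.0, 33.3 and 26.2 FPKM at 0.5 mg/L and 32.2, 31.9 and 33.9 FPKM at 0.1 mg/L, with overlapping treatments (-0.04 ± 0.12, limma adjusted p = 0.84).

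Of the 3 tested D3-3-like copies, 1 fell. The most abundant D cyclin locus, Niben261Chr01g1314001, had 79.7, 80.1 and 74.8 FPKM at 0.5 mg/L and 75.2, 76.8 and 82.0 FPKM at 0.1 mg/L, a log2 difference of 0.00 ± 0.07 (limma adjusted p = 0.97). Niben261Chr05g0053002 averaged 48.2 ± 5.9 FPKM at 0.5 mg/L and 48.8 ± 2.9 FPKM at 0.1 mg/L (SD, n = 3 each). Niben261Chr11g0383003 alone of the D3-3-like copies fell, with 22.9 ± 1.2 FPKM at 0.5 mg/L and 30.8 ± 3.2 FPKM at 0.1 mg/L (-0.41 ± 0.09, limma adjusted p = 0.01), and its call was lost under TPM scaling (adjusted p = 0.086).

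Cyclin-D1-1 locus Niben261Chr19g0939006 went the other way, with 12.04, 17.1 and 16.5 FPKM at 0.5 mg/L and 6.79, 9.15 and 8.94 FPKM at 0.1 mg/L. The treatments did not overlap, and the locus rose 1.83-fold (log2 fold change 0.80 ± 0.16, limma adjusted p = 0.0067), a call held under every alternative. The other D1-1 copy, Niben261Chr02g0775003, had 4.74 ± 1.3 FPKM at 0.5 mg/L and 3.38 ± 0.85 FPKM at 0.1 mg/L (adjusted p = 0.17). The cyclin-D2-1-like locus Niben261Chr19g0565004 had 6.03, 8.65 and 7.81 FPKM at 0.5 mg/L and 4.22, 3.45 and 5.94 FPKM at 0.1 mg/L. These values nearly touch, and its call (0.63 ± 0.19, limma adjusted p = 0.033) was lost when replicate 2 or 3 at 0.5 mg/L or replicate 1 or 2 at 0.1 mg/L was left out and under quantile normalization. A putative cyclin-D6-1, Niben261Chr19g0349002, had 7.66, 10.2 and 9.34 FPKM at 0.5 mg/L and 5.28, 7.05 and 4.71 FPKM at 0.1 mg/L (0.60 ± 0.16, limma adjusted p = 0.02). D6 cyclins are known in Arabidopsis for a formative division of root ground tissue; this call was lost without replicate 3 at 0.5 mg/L, without replicate 1 or 3 at 0.1 mg/L and under quantile normalization. The other 4 tested D6 loci and the 3 tested D4 loci had log2 fold changes from -0.46 to 0.29, and none passed.

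**Figure D2:**
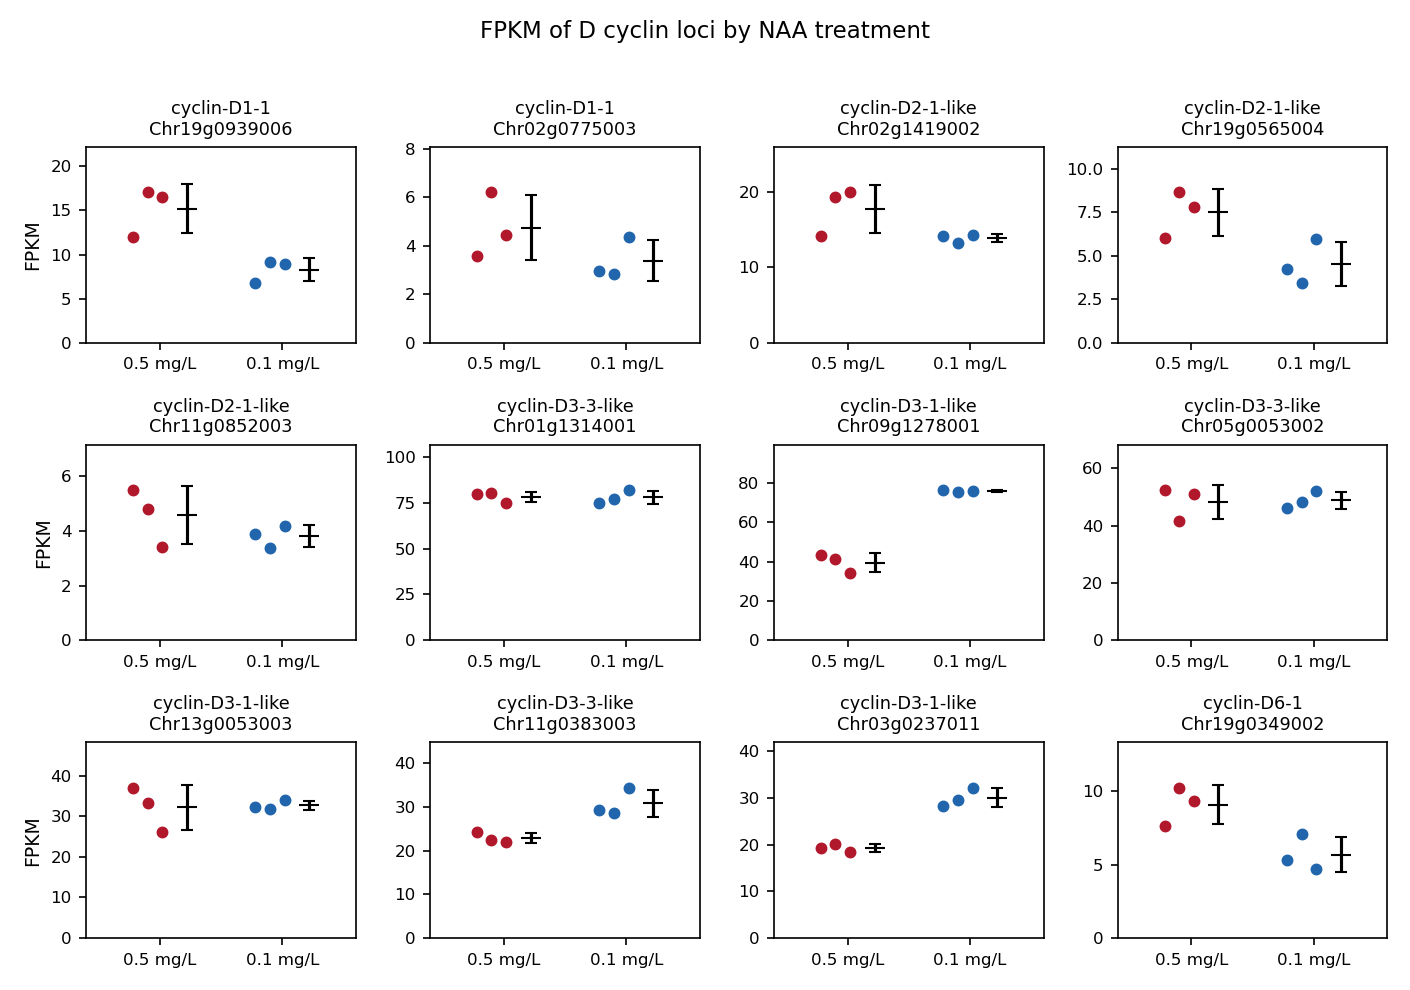
FPKM (vertical axes, each from 0) of the D1, D2 and D3 cyclin loci tested and of the D6-1 locus that rose, in the 3 libraries at 0.5 mg/L NAA (red, left) and the 3 at 0.1 mg/L NAA (blue, right), with the mean and SD of each treatment in black. The D3-1-like locus Chr09g1278001 sits at 34.0 to 43.2 FPKM in 0.5 mg/L libraries and at 75.4 to 76.4 FPKM in 0.1 mg/L libraries, while its copy Chr13g0053003 overlaps between treatments.

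Among the targets of the D cyclin kinases, none of the 3 retinoblastoma-related loci and none of the 7 tested E2F loci passed (limma, 0 of either group also at an unadjusted p under 0.05). Of all tested loci, 41.9% passed. The main retinoblastoma-related locus, Niben261Chr09g0203002, had 8.86, 7.23 and 7.83 FPKM at 0.5 mg/L and 6.83, 7.21 and 6.74 FPKM at 0.1 mg/L (log2 fold change 0.18 ± 0.10, limma adjusted p = 0.21). The neighbouring loci Niben261Chr04g1089004 and Niben261Chr04g1089005 were low and erratic, the first at 0.78, 0.69 and 3.08 FPKM at 0.5 mg/L and 1.73, 0.63 and 0.73 FPKM at 0.1 mg/L. The second stood at 1.45, 1.44 and 1.05 FPKM at 0.5 mg/L and 0.56, 0.74 and 2.10 FPKM at 0.1 mg/L. The most abundant E2F locus, the E2FB locus Niben261Chr18g0885009, averaged 10.9 ± 0.60 FPKM at 0.5 mg/L and 9.83 ± 1.4 FPKM at 0.1 mg/L. The next, E2FB-like Niben261Chr08g1175001, averaged 4.59 ± 0.20 FPKM at 0.5 mg/L and 4.04 ± 0.84 FPKM at 0.1 mg/L (adjusted p = 0.40). All 7 E2F log2 fold changes lay between 0.04 and 0.23. Under TPM scaling 2 E2F loci and 1 retinoblastoma-related locus were called higher. The summed FPKM of each group overlapped between treatments, but the sums in TPM did not. E2F loci summed to 28.4 to 32.4 in 0.5 mg/L libraries and 21.4 to 26.9 in 0.1 mg/L libraries. Retinoblastoma-related loci summed to 9.22 to 12.1 in 0.5 mg/L libraries and 7.42 to 8.39 in 0.1 mg/L libraries.

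A cyclins act from replication to mitosis, and B cyclins in mitosis. B cyclins summed to 134 ± 7.6 FPKM (0.5 mg/L) and 135 ± 3.9 FPKM (0.1 mg/L), and A cyclins to 77.8 ± 3.7 FPKM (0.5 mg/L) and 75.2 ± 5.1 FPKM (0.1 mg/L), and in both classes the libraries overlapped between treatments (SD, n = 3 each). In TPM they did not overlap: the B cyclins summed to 127 to 141 in 0.5 mg/L libraries and 115 to 123 in 0.1 mg/L libraries, and the A cyclins to 72.5 to 80.2 in 0.5 mg/L libraries and 61.9 to 71.0 in 0.1 mg/L libraries. Of 14 tested B cyclin loci, 1 rose and none fell (7.14% passed, against 41.9% of all tested loci). Only 2 had treatments that did not overlap (14.3%, against the 54.7% of all loci). Under TPM scaling 3 were called higher, and under quantile normalization none (limma). That locus, named G2/mitotic-specific cyclin-1 and numbered Niben261Chr13g0454001, had 8.43, 8.42 and 8.63 FPKM at 0.5 mg/L and 6.53, 6.73 and 6.87 FPKM at 0.1 mg/L (log2 fold change 0.30 ± 0.08, limma adjusted p = 0.025). The spread within each treatment was small there. The call was nevertheless lost without replicate 1 or 3 at 0.5 mg/L, without any 1 of the 0.1 mg/L replicates, and under quantile normalization. Its copy Niben261Chr17g0750002 leaned the other way, with 13.5 ± 1.7 FPKM at 0.5 mg/L and 15.9 ± 0.92 FPKM at 0.1 mg/L (adjusted p = 0.12). The most abundant B cyclins were the S13-7-like locus Niben261Chr13g0159001, with 23.4, 19.4 and 21.3 FPKM at 0.5 mg/L and 19.5, 18.1 and 20.9 FPKM at 0.1 mg/L, and the cyclin-2-like locus Niben261Chr03g0191003, with 19.2, 18.1 and 16.8 FPKM at 0.5 mg/L and 19.0, 18.1 and 18.3 FPKM at 0.1 mg/L.

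Of 11 tested A cyclin loci, 3 fell and none rose (27.3% passed, against 41.9% of all tested loci). The median log2 fold change was 0.15. Both putative cyclin-A3-1 loci fell: Niben261Chr02g1389004 had 3.78 ± 0.34 FPKM at 0.5 mg/L and 5.53 ± 1.0 FPKM at 0.1 mg/L (-0.44 ± 0.14, limma adjusted p = 0.043). Niben261Chr05g0046004 had 6.31 ± 0.42 FPKM at 0.5 mg/L and 8.18 ± 0.39 FPKM at 0.1 mg/L (-0.33 ± 0.10, limma adjusted p = 0.027). The other was a C13-1-like locus, Niben261Chr11g0818015, with 2.77 ± 0.28 FPKM at 0.5 mg/L and 4.13 ± 0.39 FPKM at 0.1 mg/L (-0.44 ± 0.12, limma adjusted p = 0.022). Under TPM scaling all 3 calls were lost, with log2 fold changes of -0.28, -0.16 and -0.29, and 5 other A cyclin loci were called higher. Each of the 3 was also lost on leaving out single libraries, passing in 8, 9 and 10 of 15 alternatives. The most abundant A cyclins, the A1-4-like loci Niben261Chr11g1036014 and Niben261Chr05g0302015, averaged 18.5 ± 2.2 and 14.5 ± 1.1 FPKM at 0.5 mg/L and 16.03 ± 1.1 and 13.02 ± 1.1 FPKM at 0.1 mg/L (adjusted p = 0.19 and 0.26).

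Of 25 tested kinase loci, 8 rose, 2 fell and 15 did not pass (40% passed, against 41.9% of all tested loci). The median log2 fold change was 0.09. Under TPM scaling 13 were called higher and none lower. The 2 that fell were both of the CDKA type, the kinase of the core cycle, named cell division control protein 2 homolog A in the table. Niben261Chr03g1557002 had 28.6, 31.6 and 26.9 FPKM at 0.5 mg/L and 36.8, 35.8 and 36.4 FPKM at 0.1 mg/L (log2 fold change -0.32 ± 0.08, limma adjusted p = 0.015). Niben261Chr14g1037002 had 24.02, 26.5 and 19.6 FPKM at 0.5 mg/L and 30.8, 29.2 and 32.1 FPKM at 0.1 mg/L (-0.39 ± 0.11, limma adjusted p = 0.028). At both loci every library at 0.5 mg/L lay below every library at 0.1 mg/L. The other CDKA loci, Niben261Chr02g1330004 and Niben261Chr19g0674002, had log2 fold changes of -0.23 and -0.22 that did not pass (adjusted p = 0.12 and 0.13). Both CDKA calls were lost under TPM scaling (-0.13, adjusted p = 0.19, and -0.20, adjusted p = 0.16) and without replicate 1 at 0.1 mg/L, and that of Niben261Chr14g1037002 also without replicate 2 or 3 there.

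CDKB, the mitotic kinase, peaks in dividing cells and is often read as a measure of division. None of its 3 loci passed (limma; 1, lower, at an unadjusted p under 0.05), and under TPM scaling 1 was called higher. The most abundant, Niben261Chr03g0214009, had 65.8, 60.2 and 59.4 FPKM at 0.5 mg/L and 74.7, 70.8 and 65.4 FPKM at 0.1 mg/L (-0.18 ± 0.08, limma adjusted p = 0.097). Niben261Chr11g0723008 had 38.0 ± 1.3 FPKM at 0.5 mg/L and 35.7 ± 1.2 FPKM at 0.1 mg/L, and Niben261Chr05g0899006 had 23.9 ± 4.1 FPKM at 0.5 mg/L and 24.01 ± 0.56 FPKM at 0.1 mg/L. The sum of the 3 was 124 ± 7.7 FPKM at 0.5 mg/L and 130 ± 4.0 FPKM at 0.1 mg/L, with overlapping libraries.

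The kinase loci that rose belonged to the C, E, F and G families. CDKG, linked in Arabidopsis to the splicing of messenger RNA, gave the largest differences. Niben261Chr01g1444001 had 29.0, 30.1 and 30.0 FPKM at 0.5 mg/L and 14.7, 16.2 and 18.0 FPKM at 0.1 mg/L, a rise of 1.82-fold (log2 fold change 0.83 ± 0.09, limma adjusted p = 0.00065). Niben261Chr04g0652001 had 41.3, 45.0 and 46.6 FPKM at 0.5 mg/L and 24.1, 25.3 and 26.5 FPKM at 0.1 mg/L, a rise of 1.75-fold (0.78 ± 0.08, limma adjusted p = 0.00051). Both stood clear of their spread, and both calls were held under every alternative. Another CDKG-2 copy, Niben261Chr15g0669008, had 22.7 ± 2.1 FPKM at 0.5 mg/L and 18.3 ± 1.6 FPKM at 0.1 mg/L (0.30 ± 0.10, limma adjusted p = 0.042) and passed in 7 of 15 alternatives. The fourth, Niben261Chr14g0602035, overlapped between treatments (20.3 ± 2.0 FPKM at 0.5 mg/L, 19.1 ± 1.5 FPKM at 0.1 mg/L). The 4 CDKG copies together summed to 112, 123 and 116 FPKM at 0.5 mg/L and to 75.2, 76.4 and 85.4 FPKM at 0.1 mg/L.

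CDKE, the kinase of the Mediator complex that links transcription factors to RNA polymerase, rose at both loci. Niben261Chr04g0421004 had 17.8 ± 1.5 FPKM at 0.5 mg/L and 13.2 ± 0.98 FPKM at 0.1 mg/L (0.40 ± 0.10, limma adjusted p = 0.013). Niben261Chr18g1061002 had 18.7 ± 0.089 FPKM at 0.5 mg/L and 14.7 ± 1.0 FPKM at 0.1 mg/L (0.33 ± 0.08, limma adjusted p = 0.013; adjusted p = 0.055 without replicate 1 at 0.1 mg/L). CDKC phosphorylates RNA polymerase with its partner cyclin T, and 1 of 5 CDKC loci rose, the CDKC-2-like Niben261Chr05g0998001 (18.4 ± 0.37 FPKM at 0.5 mg/L, 14.0 ± 1.3 FPKM at 0.1 mg/L; 0.37 ± 0.09, limma adjusted p = 0.013). Of the CDKF loci, the F-4 locus Niben261Chr02g0636012, the most abundant kinase member, had 91.3, 95.8 and 98.0 FPKM at 0.5 mg/L and 78.0, 80.8 and 79.2 FPKM at 0.1 mg/L. This was a small rise (0.26 ± 0.06, limma adjusted p = 0.014), lost without replicate 1 at 0.1 mg/L (adjusted p = 0.066). Its copy Niben261Chr03g0608002 rose as well, with 38.1 ± 1.5 FPKM at 0.5 mg/L and 30.7 ± 1.0 FPKM at 0.1 mg/L (0.30 ± 0.07, limma adjusted p = 0.011). These were 2 of 5 tested CDKF loci. The remaining F-4 copy, Niben261Chr05g1294005, averaged 63.2 ± 2.4 FPKM at 0.5 mg/L and 58.8 ± 0.70 FPKM at 0.1 mg/L (0.10, limma adjusted p = 0.23). The F-1 locus Niben261Chr14g0067009 leaned lower (-0.18, limma adjusted p = 0.12). Neither of the 2 tested CDKD loci, whose products activate other kinases, passed (limma; 0 also at an unadjusted p under 0.05). A low CDKF-1 locus on a scaffold, Niben261Scf02615g0000004, was high in replicate 1 of both treatments, with 1.99, 0.44 and 0.24 FPKM at 0.5 mg/L and 1.80, 0.31 and 0.08 FPKM at 0.1 mg/L.

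**Figure D3:**
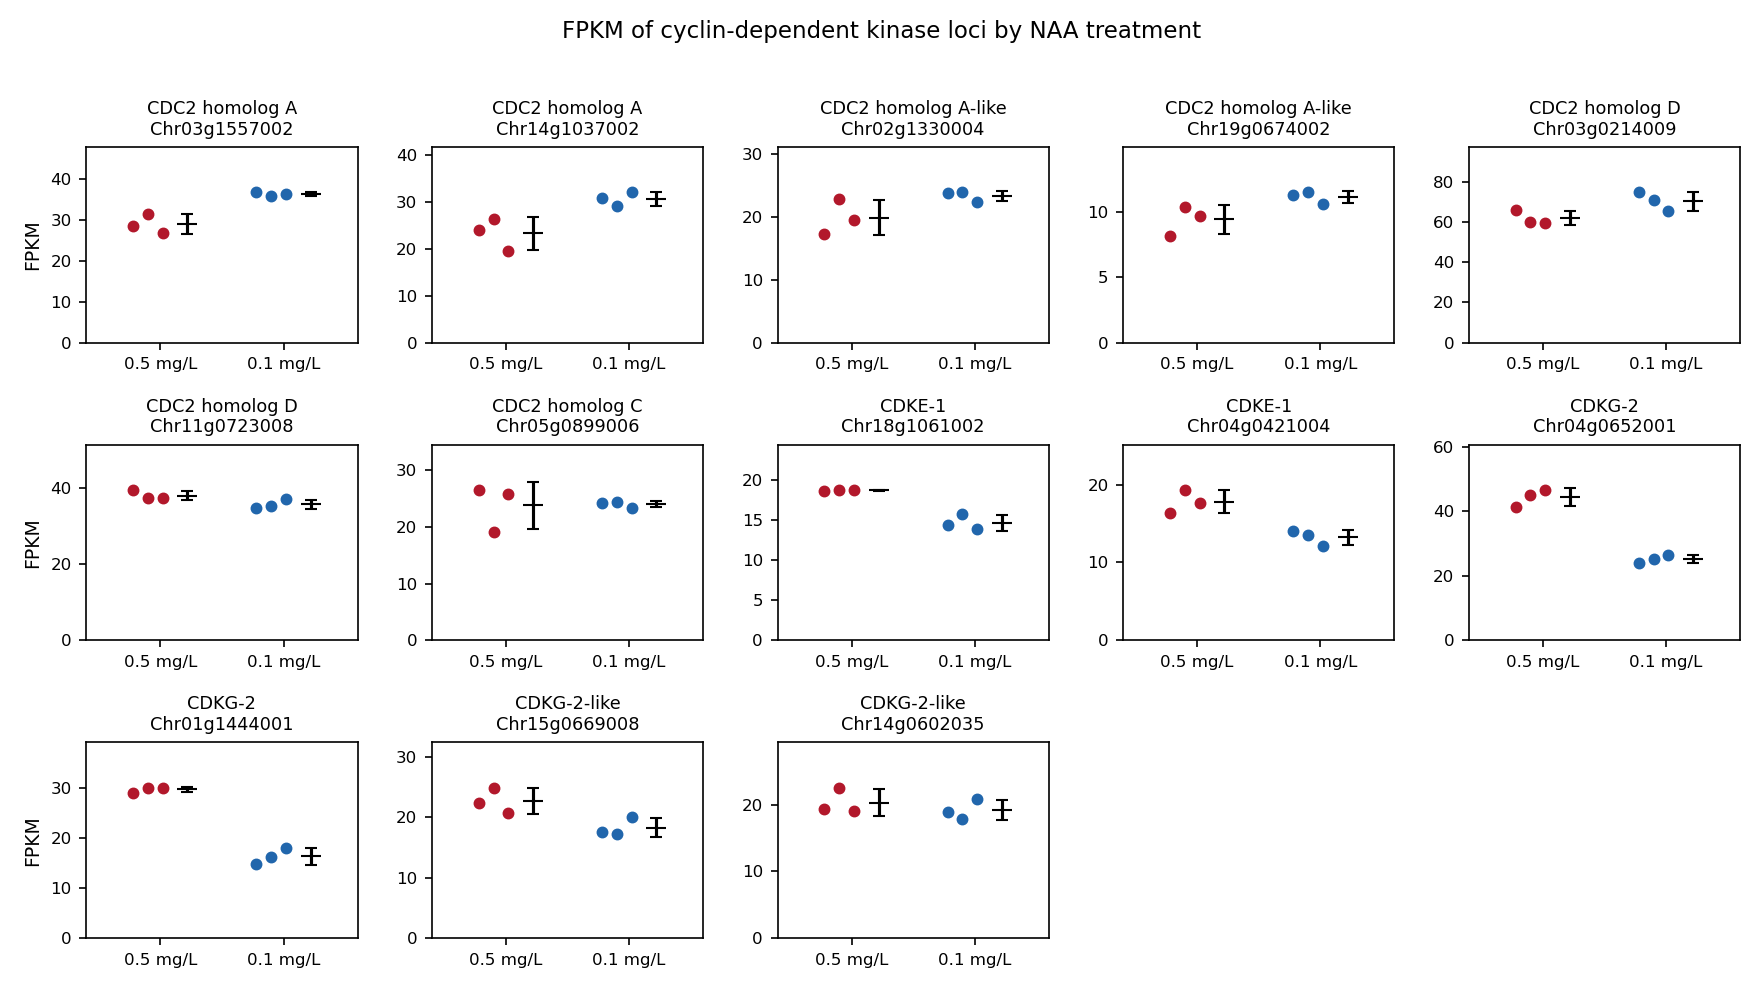
FPKM (vertical axes, each from 0) of the CDKA loci (CDC2 homolog A), the CDKB loci (CDC2 homologs D and C), the CDKE-1 loci and the CDKG-2 loci in the 3 libraries at 0.5 mg/L NAA (red, left) and the 3 at 0.1 mg/L NAA (blue, right), with the mean and SD of each treatment in black. The CDKG-2 locus Chr04g0652001 sits at 41.3 to 46.6 FPKM in 0.5 mg/L libraries, above 24.1 to 26.5 FPKM in 0.1 mg/L libraries, whereas the CDKA locus Chr03g1557002 sits lower at 0.5 mg/L.

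CKS proteins are small docking subunits that bind the cyclin-dependent kinases, and both of their loci fell. Niben261Chr18g0021002, the member with the highest mean FPKM, had 239, 242 and 192 FPKM at 0.5 mg/L and 368, 339 and 374 FPKM at 0.1 mg/L. It fell to 0.623 times the 0.1 mg/L level (log2 fold change -0.69 ± 0.10, limma adjusted p = 0.0022), and the call was held under every alternative. Niben261Chr03g1294006 had 180, 191 and 161 FPKM at 0.5 mg/L and 243, 237 and 249 FPKM at 0.1 mg/L, and fell too (-0.45 ± 0.08, limma adjusted p = 0.004). Its call was lost under quantile normalization (-0.13, adjusted p = 0.2). At both loci replicate 3 was the lowest of the 0.5 mg/L libraries.

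Of 12 tested inhibitor loci, 2 rose (1 SMR and 1 KRP) and 2 fell (both KRP), so 33.3% passed, against 41.9% of all tested loci. The median log2 fold change was -0.14, and under TPM scaling 3 were called higher and 1 lower. The SMR2-like locus Niben261Chr12g0035001 was the 1 member that rose past the fold threshold on the log2(FPKM + 1) scale. It was 1 of 2 with 0.1 or 0.01 added to the FPKM in place of 1. It had 10.8, 17.2 and 14.9 FPKM at 0.5 mg/L and 6.90, 4.28 and 5.09 FPKM at 0.1 mg/L, a rise of 2.64-fold (log2 fold change 1.25 ± 0.20, limma adjusted p = 0.0026). The lowest 0.5 mg/L library stood above the highest 0.1 mg/L library, and the call was held under every alternative, with log2 fold changes from 1.11 to 1.42. The second tested SMR2-like locus, Niben261Chr05g0817001, was near the minimum, with 0.41, 1.28 and 0.69 FPKM at 0.5 mg/L and 0.28, 1.00 and 0.77 FPKM at 0.1 mg/L.

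The KRP loci, annotated as cyclin-dependent kinase inhibitors 3, 4, 5 and 7, were more abundant, with summed FPKM of 199, 227 and 165 at 0.5 mg/L and 241, 232 and 249 at 0.1 mg/L, a separation that was lost in TPM (167 to 224 in 0.5 mg/L libraries, 201 to 218 in 0.1 mg/L libraries). Inhibitor 4-like Niben261Chr10g0011004 had 17.4, 18.8 and 15.4 FPKM at 0.5 mg/L and 27.8, 23.95 and 28.8 FPKM at 0.1 mg/L, and fell (-0.61 ± 0.10, limma adjusted p = 0.0035). Its copy Niben261Chr09g0091001 had 21.0 ± 4.0 FPKM at 0.5 mg/L and 24.2 ± 1.5 FPKM at 0.1 mg/L (adjusted p = 0.24). The most abundant inhibitor, the 5-like locus Niben261Chr16g1399003, had 73.7, 77.7 and 52.4 FPKM at 0.5 mg/L and 94.6, 96.2 and 102 FPKM at 0.1 mg/L, and also fell (-0.54 ± 0.14, limma adjusted p = 0.02). That call was lost when any 1 of the 0.1 mg/L replicates was left out, under TPM scaling (adjusted p = 0.07) and under quantile normalization, with log2 fold changes from -0.64 to -0.34. Its copy Niben261Chr17g0089011 averaged 25.1 ± 3.9 FPKM at 0.5 mg/L and 29.7 ± 3.4 FPKM at 0.1 mg/L (adjusted p = 0.18). Inhibitor 3-like Niben261Chr17g1331001 was the 1 KRP locus to rise, with 16.9, 25.6 and 20.4 FPKM at 0.5 mg/L and 14.2, 11.1 and 12.9 FPKM at 0.1 mg/L (0.66 ± 0.16, limma adjusted p = 0.012). The 4 inhibitor 7-like loci did not pass, and the largest difference among them, -0.90 ± 0.32 at Niben261Chr04g0986004 (adjusted p = 0.059), came from overlapping values of 2.37, 1.31 and 0.90 FPKM at 0.5 mg/L and 2.06, 5.85 and 3.54 FPKM at 0.1 mg/L.

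**Figure D4:**
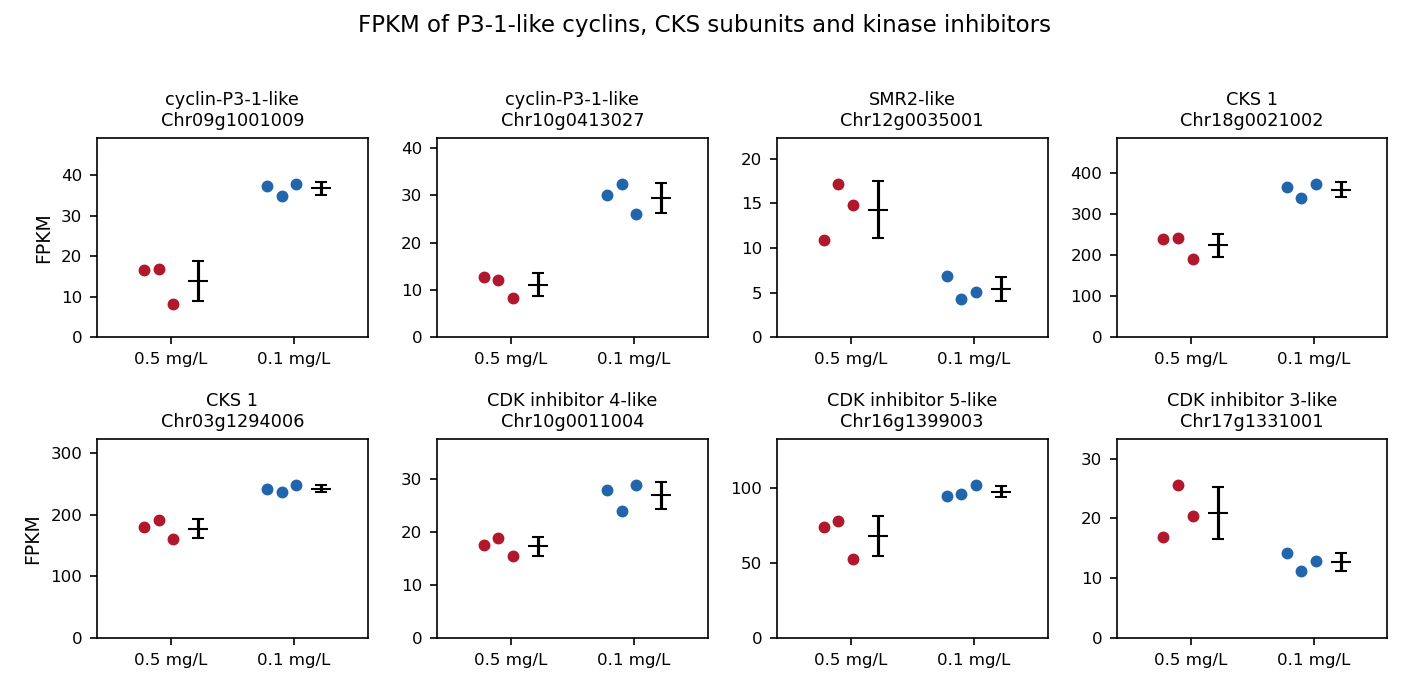
FPKM (vertical axes, each from 0) of the differentially expressed cyclin-P3-1-like and SMR2-like loci, the CKS subunit loci, and the other kinase inhibitor loci with a limma adjusted p under 0.05, in the 3 libraries at 0.5 mg/L NAA (red, left) and the 3 at 0.1 mg/L NAA (blue, right), with the mean and SD of each treatment in black. Both P3-1-like loci, both CKS loci and inhibitors 4 and 5 lie lower at 0.5 mg/L; SMR2-like (10.8 to 17.2 FPKM at 0.5 mg/L, 4.28 to 6.90 FPKM at 0.1 mg/L) and inhibitor 3 lie higher.

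The anaphase-promoting complex is the ubiquitin ligase that ends mitosis. Of its 17 tested subunit loci, 6 rose and 2 fell (47.1% passed, against 41.9% of all tested loci). The median log2 fold change was 0.11. TPM scaling gave 8 higher and none lower, and quantile normalization 3 higher and 2 lower. The 3 calls held under every alternative were the scaffold subunit APC1, APC5 and a copy of APC7. APC1 (Niben261Chr03g1651001) had 6.27, 5.40 and 5.73 FPKM at 0.5 mg/L and 3.36, 3.58 and 3.38 FPKM at 0.1 mg/L (log2 fold change 0.61 ± 0.10, limma adjusted p = 0.0034). APC5 (Niben261Chr03g1604007) had 2.11, 2.72 and 2.74 FPKM at 0.5 mg/L and 1.02, 1.10 and 1.22 FPKM at 0.1 mg/L (0.73 ± 0.14, limma adjusted p = 0.0052). Its mean FPKM rose 2.27-fold, and its log2 fold change reached 1.17 among the alternatives. At both loci the libraries of the treatments were well apart. APC7-like Niben261Chr17g0667013 averaged 6.83 ± 0.92 FPKM at 0.5 mg/L and 3.68 ± 0.94 FPKM at 0.1 mg/L (0.75 ± 0.17, limma adjusted p = 0.011), while the nearby APC7-like Niben261Chr17g0667001 averaged 5.94 ± 0.46 FPKM at 0.5 mg/L and 5.53 ± 0.26 FPKM at 0.1 mg/L (adjusted p = 0.53). APC2 (Niben261Chr19g1023002), APC4 (Niben261Chr16g0311010) and APC6 (Niben261Chr13g1325018) rose by less, with log2 fold changes of 0.45, 0.30 and 0.30 (limma adjusted p = 0.027, 0.045 and 0.031), and passed in 9, 7 and 8 of 15 alternatives. The small RING subunit APC11 (Niben261Chr18g0606001) had 22.8, 21.6 and 15.3 FPKM at 0.5 mg/L and 27.7, 28.6 and 31.2 FPKM at 0.1 mg/L, and fell (-0.55 ± 0.15, limma adjusted p = 0.02), as did APC10 (Niben261Chr15g1237019; 15.1 ± 1.6 FPKM at 0.5 mg/L, 20.6 ± 2.3 FPKM at 0.1 mg/L; -0.43 ± 0.11, limma adjusted p = 0.018). Both falls were lost under TPM scaling and without replicate 1 or replicate 3 at 0.1 mg/L, and that of APC11 also without replicate 2. The most abundant subunit, the other APC10 locus Niben261Chr07g0805010, averaged 26.5 ± 1.3 FPKM at 0.5 mg/L and 28.7 ± 3.7 FPKM at 0.1 mg/L (adjusted p = 0.44).

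FIZZY-RELATED proteins, called CCS52 in legumes, activate this complex outside mitosis. Of 5 loci, the FIZZY-RELATED 2-like copies Niben261Chr03g0099009 and Niben261Chr14g1380006 rose, and both calls were held under every alternative. The share that passed, 40%, was near the 41.9% of all tested loci. Niben261Chr03g0099009 had 13.1, 12.4 and 14.4 FPKM at 0.5 mg/L and 8.76, 8.53 and 10.4 FPKM at 0.1 mg/L (log2 fold change 0.48 ± 0.11, limma adjusted p = 0.0092). Niben261Chr14g1380006 had 9.32, 9.37 and 8.72 FPKM at 0.5 mg/L and 6.02, 6.70 and 6.97 FPKM at 0.1 mg/L (0.42 ± 0.09, limma adjusted p = 0.01). The lowest library at 0.5 mg/L exceeded the highest at 0.1 mg/L in both. The remaining 2-like copy, Niben261Chr17g0437001, averaged 5.21 ± 0.66 FPKM at 0.5 mg/L and 4.68 ± 0.86 FPKM at 0.1 mg/L (adjusted p = 0.49). The FIZZY-RELATED 3 locus Niben261Chr14g0395008, the most abundant of the 5, averaged 23.6 ± 1.8 FPKM at 0.5 mg/L and 20.8 ± 1.8 FPKM at 0.1 mg/L (adjusted p = 0.17), and the 3-like locus Niben261Chr01g0835008 averaged 1.54 ± 0.30 FPKM at 0.5 mg/L and 2.04 ± 0.33 FPKM at 0.1 mg/L (adjusted p = 0.21).

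Among the 145 tested members, the largest falls were in P cyclins, short cyclins related to the yeast phosphate regulator PHO80. The cyclin-P3-1-like locus Niben261Chr09g1001009 had 16.5, 16.8 and 8.26 FPKM at 0.5 mg/L and 37.4, 34.9 and 37.8 FPKM at 0.1 mg/L (log2 fold change -1.40 ± 0.24, limma adjusted p = 0.0033). Its copy Niben261Chr10g0413027 had 12.8, 12.2 and 8.33 FPKM at 0.5 mg/L and 30.0, 32.4 and 26.1 FPKM at 0.1 mg/L (-1.35 ± 0.16, limma adjusted p = 0.00087). Both were at about 0.38 times the 0.1 mg/L level, replicate 3 was the lowest of the 0.5 mg/L libraries in both, and both calls were held under every alternative. The ratio of the first copy to the second came to 1.22 ± 0.20 at 0.5 mg/L and 1.26 ± 0.18 at 0.1 mg/L (exact permutation test, two-sided, p = 0.8). The loci named cyclin-P3-1 without the word like behaved otherwise: Niben261Chr10g0105005 rose slightly, with 54.4, 54.5 and 53.9 FPKM at 0.5 mg/L and 46.4, 41.5 and 46.0 FPKM at 0.1 mg/L (0.28 ± 0.07, limma adjusted p = 0.016; adjusted p = 0.065 without replicate 2 at 0.1 mg/L). Niben261Chr09g0392005 averaged 38.4 ± 4.1 FPKM at 0.5 mg/L and 39.0 ± 1.7 FPKM at 0.1 mg/L (adjusted p = 0.85).

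Of 7 U cyclin loci, a group close to the P cyclins, the U4-1-like Niben261Chr05g1037002 fell, with 8.84, 5.76 and 6.62 FPKM at 0.5 mg/L and 12.8, 10.02 and 12.1 FPKM at 0.1 mg/L (-0.66 ± 0.16, limma adjusted p = 0.014; adjusted p = 0.056 without replicate 1 at 0.1 mg/L). The U2-2-like locus Niben261Chr10g0635002, the most abundant of the cyclins outside A, B and D, had 43.3, 67.9 and 34.6 FPKM at 0.5 mg/L and 64.1, 74.0 and 70.5 FPKM at 0.1 mg/L. Replicate 2 at 0.5 mg/L fell within the range of the other treatment, and the difference did not pass (-0.56 ± 0.22, limma adjusted p = 0.073). Without that library it did (-0.83, limma adjusted p = 0.0021). The cyclins that partner transcription kinases had 14 tested C, H, K, L and T loci, and 28.6% passed, against 41.9% of all tested loci. Treatments did not overlap at 57.1% of them, against 54.7% of all loci. The 6 T cyclin loci summed to 104 to 115 FPKM at 0.5 mg/L and 94.3 to 101 FPKM at 0.1 mg/L. TPM scaling called 4 of these 6 higher, and quantile normalization 0. Of the 14 loci, 2 rose and 2 fell in the deposited values, all with log2 fold changes of at most 0.36 in size. They were T1-3-like Niben261Chr13g0318001 (0.24, limma adjusted p = 0.032), L1-1 Niben261Chr10g0393021 (-0.25, limma adjusted p = 0.04) and both C1-2-like copies. These 4 passed in 8, 7, 8 and 12 of 15 alternatives. Over all 26 loci outside the A, B and D cyclins, 3 rose and 5 fell (30.8% passed, against 41.9% of all tested loci). TPM scaling gave 6 higher and 3 lower, and quantile normalization 1 higher and 5 lower.

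Cyclin C works with CDKE in the Mediator complex, and its 2 copies moved apart. Niben261Chr04g1634020 rose, with 25.6, 22.8 and 26.0 FPKM at 0.5 mg/L and 17.9, 17.2 and 22.6 FPKM at 0.1 mg/L (0.36 ± 0.12, limma adjusted p = 0.04). Niben261Chr17g1295003 fell, with 14.1, 14.4 and 14.2 FPKM at 0.5 mg/L and 16.6, 20.5 and 18.9 FPKM at 0.1 mg/L (-0.36 ± 0.09, limma adjusted p = 0.018). Their sum overlapped between treatments, at 39.05 ± 1.6 FPKM at 0.5 mg/L and 37.9 ± 3.5 FPKM at 0.1 mg/L, but not in TPM (36.6 to 40.8 in 0.5 mg/L libraries, 30.0 to 36.4 in 0.1 mg/L libraries). The ratio of the first to the second came to 1.58 to 1.83 at 0.5 mg/L and 0.841 to 1.19 at 0.1 mg/L. Each copy already separated the treatments, in opposite directions, so the ratio had to separate them too. Its exact permutation test (two-sided, p = 0.1, the smallest that 3 libraries against 3 can give) therefore adds no support. The rise was lost without replicate 1 or 3 at 0.5 mg/L, without replicate 1 or 2 at 0.1 mg/L, with no minimum on FPKM, without the variance trend and under quantile normalization, and the fall without replicate 2 or 3 at 0.1 mg/L and under TPM scaling.

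A group of 4 loci carries the name cyclin-B1-2-like but has another annotation, which gives the proteasome maturation factor UMP1 for all 4. They were kept as members by the rule and are counted in the totals above, but not among the B cyclins. All 4 fell, and all 4 calls were held under every alternative. Niben261Chr07g1413010 had 74.2, 71.0 and 61.3 FPKM at 0.5 mg/L and 152, 149 and 136 FPKM at 0.1 mg/L (log2 fold change -1.07 ± 0.09, limma adjusted p = 0.00031). Niben261Chr16g0509029 had 176, 136 and 127 FPKM at 0.5 mg/L and 287, 290 and 276 FPKM at 0.1 mg/L (-0.97 ± 0.12, limma adjusted p = 0.001). Niben261Chr04g0971003 and Niben261Chr17g1109003 had log2 fold changes of -0.90 and -0.88 (limma adjusted p = 0.00068 and 0.00061). Their levels, 335 ± 46 FPKM in sum at 0.5 mg/L and 653 ± 16 FPKM at 0.1 mg/L, were far above the sum of the B cyclins. Without these loci, 25 of the 141 tested members rose and 19 fell, and 3 were differentially expressed.

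Many of these loci share a description with others and are called copies here, but their sequences were not compared. How the authors' counting shared reads between similar loci is not given in the sources used here, so the split between copies is uncertain. Grouped by description, 48 descriptions covered 133 of the tested loci with 2 or more copies each. Of the 25 descriptions with exactly 2 copies, both rose in 1 (CDKE-1), both fell in 2 (the CKS subunits and cyclin-A3-1), the copies moved apart in 1 (cyclin-C1-2-like), 1 copy passed in 13 and neither in 8. For the D3-1-like copies Niben261Chr09g1278001 and Niben261Chr13g0053003, the ratio was 1.17 to 1.30 at 0.5 mg/L and 2.23 to 2.37 at 0.1 mg/L (exact permutation test, two-sided, p = 0.1). The inhibitor 3-like copies had a ratio of 1.51 to 2.04 at 0.5 mg/L and 1.24 to 1.34 at 0.1 mg/L (p = 0.1 by the same exact test). In all, 5 ratios of copies were computed, for pairs chosen after their values were seen, and the smallest p adjusted over the 5 (Benjamini-Hochberg) was 0.167 (exact test).

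Libraries varied more within the 0.5 mg/L treatment. The median SD of log2(FPKM + 1) over the 145 loci came to 0.138 at 0.5 mg/L and 0.107 at 0.1 mg/L, against 0.151 and 0.103 over all tested loci. Replicate 3 was the lowest of the 0.5 mg/L libraries at 62 of the 145 members, and replicate 3 at 0.1 mg/L, the shallower library, was the highest of its treatment at 72.

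The 29 members under the minimum included all 4 loci of the meiotic cyclin SDS, whose summed FPKM came to 0.390 ± 0.082 at 0.5 mg/L and 0.747 ± 0.11 at 0.1 mg/L, the single D5 cyclin locus, 6 B cyclin loci and 3 A2 loci. The highest value of any of the 29 in any library was 1.14 FPKM, and none was at 0 in all 6 libraries. Just above the minimum lay cyclin-J18 (Niben261Chr01g1317016, mean 0.503 FPKM), a D6-1 locus (Niben261Chr07g1359006, 0.523) and a D4-1-like locus (Niben261Chr06g0207002, 0.633), and just below it a D3-3-like (0.307), a cyclin-2-like (0.300) and an E2FC-like locus (0.288). The J18 and D6-1 loci reached the minimum only through the 0.5 mg/L libraries, and neither passed.

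Other genes of the cell cycle were taken from a separate list of 121 loci for origin licensing, DNA synthesis, mitosis and its checkpoint, and the transcription partners of E2F. Of the 114 tested, 25 passed (21.9%, against 41.9% of all tested loci), 6 higher and 19 lower. The share higher among the calls was 24.0%, and the median log2 fold change was -0.06. The balance depended on the scaling: TPM gave 21 higher and 14 lower (60.0% higher) and quantile normalization 3 higher and 26 lower (10.3% higher). Falls were called at 6 of 11 tested loci of DNA synthesis (54.5%, 0 rose) and at 13 of 60 of mitosis and its checkpoint (21.7%, 3 rose). Over all tested loci, 20.2% fell. Proliferating cell nuclear antigen, the sliding clamp of DNA polymerase (Niben261Chr10g1107005), had 78.8, 67.6 and 66.8 FPKM at 0.5 mg/L and 102, 103 and 106 FPKM at 0.1 mg/L (-0.54 ± 0.08, limma adjusted p = 0.002). The small chain of ribonucleotide reductase, which makes the building blocks of DNA (Niben261Chr17g0844004), had 13.4, 16.3 and 8.35 FPKM at 0.5 mg/L and 29.2, 30.2 and 31.8 FPKM at 0.1 mg/L (-1.24 ± 0.21, limma adjusted p = 0.0031). Both were lower in every 0.5 mg/L library, and both calls were held under every alternative. The more abundant small chain locus, Niben261Chr16g0376022, averaged 53.8 ± 1.5 FPKM at 0.5 mg/L and 58.1 ± 1.4 FPKM at 0.1 mg/L (limma adjusted p = 0.19), and none of the 3 tested large subunit loci passed (limma adjusted p = 0.61, 0.67 and 0.14).

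In mitosis, the spindle protein TPX2 (Niben261Chr11g1393005) showed the largest difference of that list, with 0.71, 1.27 and 0.35 FPKM at 0.5 mg/L and 15.9, 17.6 and 17.6 FPKM at 0.1 mg/L (-3.38 ± 0.19, limma adjusted p = 8.2e-05). Of the 8 tested TPX2 loci, 2 fell and 2 rose, by unlike amounts. The other that fell, Niben261Chr05g0602006, averaged 0.72 ± 0.54 FPKM at 0.5 mg/L and 14.2 ± 1.9 FPKM at 0.1 mg/L (-3.19 ± 0.24, limma adjusted p = 0.00023). The rises, at TPX2-like loci, were 0.32 and 0.42 (limma adjusted p = 0.027 and 0.012). A further abundant TPX2 locus, Niben261Chr07g0956006, averaged 12.7 ± 1.8 FPKM at 0.5 mg/L and 12.8 ± 0.96 FPKM at 0.1 mg/L (limma adjusted p = 0.90). The most abundant of the mitotic loci, the microtubule bundling protein MAP65-1 (Niben261Chr01g0443001), averaged 53.7 ± 3.0 FPKM at 0.5 mg/L and 66.8 ± 0.82 FPKM at 0.1 mg/L (-0.31 ± 0.07, limma adjusted p = 0.0089; call lost under TPM scaling). Of 33 tested origin licensing loci, 2 passed (6.06%, against 41.9% of all tested loci), both higher. The first was a CDT1-like locus (Niben261Chr06g0647008), a loader of the helicase, with 9.37, 9.72 and 18.5 FPKM at 0.5 mg/L and 7.10, 6.43 and 7.37 FPKM at 0.1 mg/L (0.70 ± 0.23, limma adjusted p = 0.045). Replicate 3 stood far above the other 0.5 mg/L libraries, and the call passed in 8 of 15 alternatives, being lost without any 1 of the 0.1 mg/L libraries. The other, an MCM5 locus, a subunit of the replicative helicase (Niben261Chr06g1409045), had 1.43, 1.77 and 2.27 FPKM at 0.5 mg/L and was listed at 0 in all 3 libraries at 0.1 mg/L. It reached the minimum only through the 0.5 mg/L libraries, so its call is no support for a difference. The other MCM5 loci did not pass. Niben261Chr06g1409024 averaged 22.2 ± 3.0 FPKM at 0.5 mg/L and 21.9 ± 0.92 FPKM at 0.1 mg/L (limma adjusted p = 0.95), and Niben261Chr18g0005010 13.7 ± 1.7 and 12.5 ± 0.58 FPKM (limma adjusted p = 0.38). The most abundant licensing locus, an MCM3 locus (Niben261Chr16g0155025), averaged 23.6 ± 2.1 FPKM at 0.5 mg/L and 25.7 ± 1.3 FPKM at 0.1 mg/L (limma adjusted p = 0.31). Of the transcription partners, DPB, which binds DNA with E2F (Niben261Chr01g0581002), averaged 15.5 ± 1.8 FPKM at 0.5 mg/L and 16.3 ± 1.3 FPKM at 0.1 mg/L (adjusted p = 0.62). The TSO1-like locus Niben261Chr14g1075003 rose (6.24 ± 0.17 FPKM at 0.5 mg/L, 4.61 ± 0.44 FPKM at 0.1 mg/L; 0.37 ± 0.10, limma adjusted p = 0.024) and passed in 9 of 15 alternatives. MYB3R factors, which in Arabidopsis switch mitotic genes such as B cyclins on and off, were looked up after the descriptions were seen. They are not among the 121 loci or the counts of that list. Their 3 tested loci had log2 fold changes from 0.17 to 0.24, and none passed (limma adjusted p = 0.08, 0.18 and 0.32).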

How the data were processed

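The authors deposited FPKM values for 6 libraries in 1 table, rounded to hundredths, with the protein match and other annotation of each locus. Per the labels, libraries were made with a SMARTer mRNA-Seq kit; the read processing of these 2-week libraries is not given in the sources used here. The values are not read counts, so no count model was fitted, and apart from the relative depths estimated from the low values the depth is unknown.

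Loci averaging at least 0.5 FPKM were tested with limma 3.58.1 in R 4.3.3 (moderated variances, mean-variance trend) on log2(FPKM + 1), 0.5 minus 0.1 mg/L NAA, with Benjamini-Hochberg adjustment over 32443 loci; this scale understates changes of weakly expressed genes. On simulated libraries the procedure was checked against known changes. Exact permutation tests were run in scipy 1.17.1, and plots were made in matplotlib 3.10.9 (Python 3.11.15).

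The rule for named loci took, in each class, the 2 loci with the highest mean and up to 5 of the largest differentially expressed ones, all loci in classes of at most 6, and in each part of the second list the highest and the most changed locus. Other loci were named because they passed the test, are copies of such a locus, or lie at the minimum, after their values were seen. The members, lists and tests were chosen with earlier results of these data known. The split of the UMP1-annotated loci and the grouping of copies were made after the table was seen. Alternatives were pseudocounts of 0.1 and 0.01, no minimum, a minimum of 1, TPM, median-of-ratios and quantile scaling, the replicate number as a block, no trend, and each library left out.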

Additional observations from a re-analysis of the deposited data

How the results depend on the processing

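The count of cell cycle loci with an adjusted p under 0.05 was 48. It was 29 to 46 with 1 library left out, the fewest without replicate 1 at 0.1 mg/L (29), then replicate 2 (32) and replicate 3 (36) of that treatment. Over the other settings it ran between 40 (quantile normalization) and 61 (TPM). The count of differentially expressed loci was 4, and 3 to 6 under all alternatives. The count over the second list was 25, and 19 to 26 with 1 library left out. Of the 48 calls, 23 were lost on leaving out at least 1 library, 11 under TPM and 11 under quantile normalization, and no call was reversed. Why the calls depend on the 0.1 mg/L libraries and on the scaling was not tested. In the fit with the replicate number as a block, 40 cell cycle loci passed, 4 were differentially expressed, and 21 loci of the second list passed. Deviations of same-numbered libraries from their treatment means correlated at 0.0216, 0.0098 and 0.0096, each library best with its own number, too weakly to pair the samples, so the numbers were treated as names. Small differences at loci with few FPKM are the least certain, since the reads behind a value are unknown.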
